A study of Mus musculus with 4 samples.

Results

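NIK, the TRAF–cIAP complex that keeps it low, the IκB kinases and the IKK-related kinases are encoded by 10 genes that were taken from the deposited table by name: *Map3k14*, *Traf2*, *Traf3*, *Birc2*, *Birc3*, *Chuk*, *Ikbkb*, *Ikbkg*, *Ikbke* and *Tbk1*. Each name occurred once among the 55356 genes of the table, and all 10 genes were among the 12483 genes with a mean value of at least 10 over the libraries, the set against which they are read here. After IL-1α, *Ikbke* was 3.75-fold and *Birc3* 2.70-fold above the untreated level in macrophages lacking MK2, whereas in the MK2-rescued cells neither rose beyond counting error. The other 8 genes differed by less than 1.5-fold between their highest and lowest library.

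In the non-canonical NF-κB pathway, NIK phosphorylates IKKα, which leads to processing of the NF-κB2 precursor and nuclear entry of RelB. In resting cells, TRAF3 holds NIK, TRAF2 brings in the ubiquitin ligases cIAP1 and cIAP2, and NIK is degraded continuously. In the canonical pathway, the complex of IKKα, IKKβ and the scaffold NEMO phosphorylates IκB proteins, which releases RelA and c-Rel dimers. IKKε and TBK1 are related kinases known above all for phosphorylating interferon regulatory factors, and in macrophages they act downstream of several innate immune receptors.

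The RNA came from mouse bone marrow-derived macrophages of *MK2*-KO origin that had been immortalized and then transduced by retrovirus, either with *MK2* (i*MK2*-KO +*MK2*, whose genotype the labels give as wt) or with the empty *GFP* vector (i*MK2*-KO +*GFP*, labelled MK2 knockout). Both lines therefore share the *MK2* deletion, and both had been sorted for GFP. Cells were left untreated (UT) or received recombinant murine IL-1α at 5 ng/ml for 1 h. There was 1 library for each of the 4 conditions and 1 transduced line per genotype, so no p-value is given and an effect of MK2 cannot be told apart from other differences between the lines. The study's methods name adult mice of either sex and a wild-type C57BL/6 strain beside the knockout strains, but not the animal from which these immortalized cells came.

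Values are counts that the authors normalized with DESeq2 and rounded. A ratio is given as log2(value + 1) differences with a 95% interval that treats the values as reads, and it is called higher or lower beyond counting error where that interval excludes 0. These intervals cover counting error only and not the variation between cultures. Where a ratio is given relative to surrounding genes, its interval is the gene's own, shifted by their median. It leaves out the spread among those genes. The values of a library summed to 24891906 to 25733071. *Mapkapk2*, the gene of MK2, was at 561 and 1585 in i*MK2*-KO +*GFP* (UT and IL-1α) and at 38357 and 38141 in i*MK2*-KO +*MK2*. The direction is that of the labels, but i*MK2*-KO +*GFP* was not at 0 and was higher after IL-1α. The source of these remaining counts was not tested. All 10 macrophage markers passed the minimum (summed 116644 to 131327), with 3 higher and 6 lower in untreated i*MK2*-KO +*GFP* and 4 higher and 6 lower after IL-1α. *Mertk* and *Aif1* were more than 2-fold lower there in both states, and *Cd14* was 0.90 higher on the log2 scale in untreated and 1.84 higher in treated cells. Fibroblast markers summed to 0 to 2, T and B cell markers to 1 to 9 and neutrophil and mast cell markers to 2 to 5, with *Col1a1*, *Cd3g* and *Mpo* at 0 throughout. The 5 dendritic cell markers summed to 26 and 21 in i*MK2*-KO +*GFP* and to 106 and 117 in i*MK2*-KO +*MK2*, mostly from *Zbtb46*, with *Flt3* and *Siglech* at 0. The part of these line differences in the results below was not tested.

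The promoters of *Traf3*, *Birc3* and *Ikbke* are shown because *Birc3* and *Ikbke* moved most with IL-1α and *Traf3* was, among the members with a promoter entry, the only one with a κB consensus match. The RefSeq promoter table for GRCm38.p6 holds 9 of the 10 genes, in 13 windows running from 250 bases before to 50 bases after an annotated start, and *Ikbkb* has no entry. Both strands were searched for the κB consensus, the binding motif of NF-κB dimers, which occurred in 8.46% of all 32851 windows. In the sequences, written 5′ to 3′ in the direction of the gene, capitals mark the match.
*Traf3* (chr12:111166120-111166419, plus strand): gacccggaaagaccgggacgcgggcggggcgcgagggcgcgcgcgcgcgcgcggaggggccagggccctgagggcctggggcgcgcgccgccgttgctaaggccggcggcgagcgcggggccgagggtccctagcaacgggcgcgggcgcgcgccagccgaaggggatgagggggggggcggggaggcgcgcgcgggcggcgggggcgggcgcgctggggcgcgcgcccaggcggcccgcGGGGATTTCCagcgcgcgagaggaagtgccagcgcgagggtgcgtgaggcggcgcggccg
*Birc3* (chr9:7873121-7873420, minus strand): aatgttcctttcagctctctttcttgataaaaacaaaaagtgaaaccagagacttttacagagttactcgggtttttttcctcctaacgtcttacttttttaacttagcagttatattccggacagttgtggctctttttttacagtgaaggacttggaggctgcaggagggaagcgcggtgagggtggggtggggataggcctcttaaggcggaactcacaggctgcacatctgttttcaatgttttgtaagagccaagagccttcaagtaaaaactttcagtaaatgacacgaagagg
*Ikbke* (chr1:131279514-131279813, minus strand): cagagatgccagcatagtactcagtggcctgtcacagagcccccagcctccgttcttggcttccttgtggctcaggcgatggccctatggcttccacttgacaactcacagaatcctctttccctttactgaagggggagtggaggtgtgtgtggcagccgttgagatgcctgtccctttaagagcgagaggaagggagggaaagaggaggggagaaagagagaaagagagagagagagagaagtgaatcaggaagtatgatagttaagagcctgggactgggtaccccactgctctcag
The *Traf3* match GGGGATTTCC began 10 bases before the annotated start. Neither the *Birc3* nor the *Ikbke* window held a match, which describes these 300 bases and nothing beyond them.

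**Figure D1:**
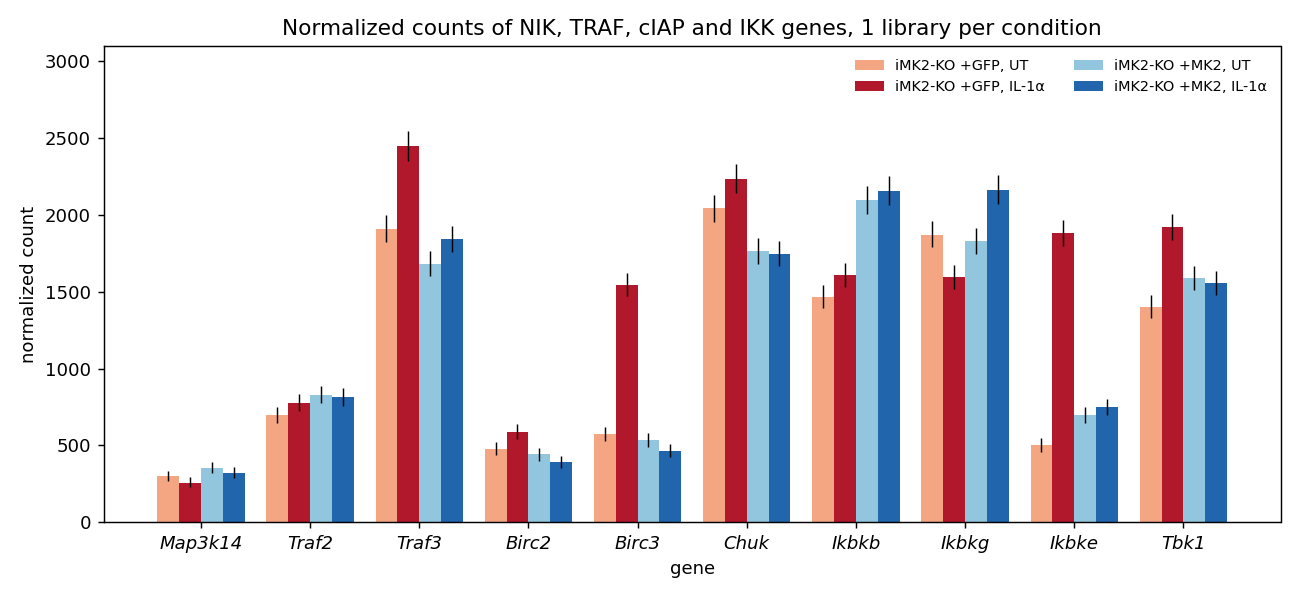
Normalized counts (y axis, linear from 0) of the 10 genes in the 4 libraries, with bars for the library value and lines for its exact 95% Poisson interval, which covers counting error only. *Birc3* (1546) and *Ikbke* (1883) stand out in the treated i*MK2*-KO +*GFP* library.

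To see whether the set differed before stimulation, the untreated lines were compared. In these, 7 of 10 genes differed between the lines beyond counting error, 2 higher and 5 lower in i*MK2*-KO +*GFP*. Over all genes tested, 57.7% differed by this measure, 30.8% higher and 26.9% lower, so 7 of 10 is not far above the share of all genes. Whether a gene is called depends on the size of its values. The 10 genes had means of 309 to 1970 (32.5 to 75.5 percentile), whereas the background reached down to 10. Shares over all genes, here and below, are therefore not matched for level. None of the 10 differed by 2-fold, as 8.29% of all genes did. The median log2 ratio of the set was -0.07, against 0.02 over all genes tested.

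After IL-1α, 9 of 10 genes differed between the lines, 6 higher and 3 lower in i*MK2*-KO +*GFP*. Among all genes tested, 60% differed, 33.7% higher and 26.3% lower. *Birc3* and *Ikbke* were more than 2-fold higher, as were 3.92% of all genes. No gene of the set was 2-fold lower, against 5.2% of all genes. The median log2 ratio was 0.33 in the set and 0.03 over all genes tested. Both line comparisons and both responses share libraries, so their counts are not independent of each other.

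Within i*MK2*-KO +*GFP*, IL-1α raised 8 genes of the set beyond counting error and lowered 1, *Ikbkg*, against 20% raised and 12.3% lowered (32.3% in all) among all genes. *Ikbke* and *Birc3* passed 2-fold upwards, as did 1.79% of all genes, and lay at the 99.3 and 98.8 percentile of all responses. Scaling to library totals or to *Gapdh* left 5 genes raised and 2 lowered, because *Traf2*, *Chuk* and *Ikbkb* then fell within counting error and *Map3k14* became lower. Within i*MK2*-KO +*MK2*, 2 genes rose (*Traf3* and *Ikbkg*) and 1 fell (*Birc3*), against 11.4% and 8.23% (19.6% in all) of all genes, and none changed by 2-fold, as 1.35% of all genes did. The difference between the responses was beyond counting error for 7 genes, 6 larger in i*MK2*-KO +*GFP* and 1 (*Ikbkg*) larger in i*MK2*-KO +*MK2*, against 15.8% and 11.1% (27% in all) of all genes. For *Ikbke* and *Birc3* this difference exceeded 2-fold, as it did upwards for 2.17% of all genes. Of the 10 genes, 6 had their highest value in the treated i*MK2*-KO +*GFP* library, as did 32.4% of all genes tested.

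**Figure D2:**
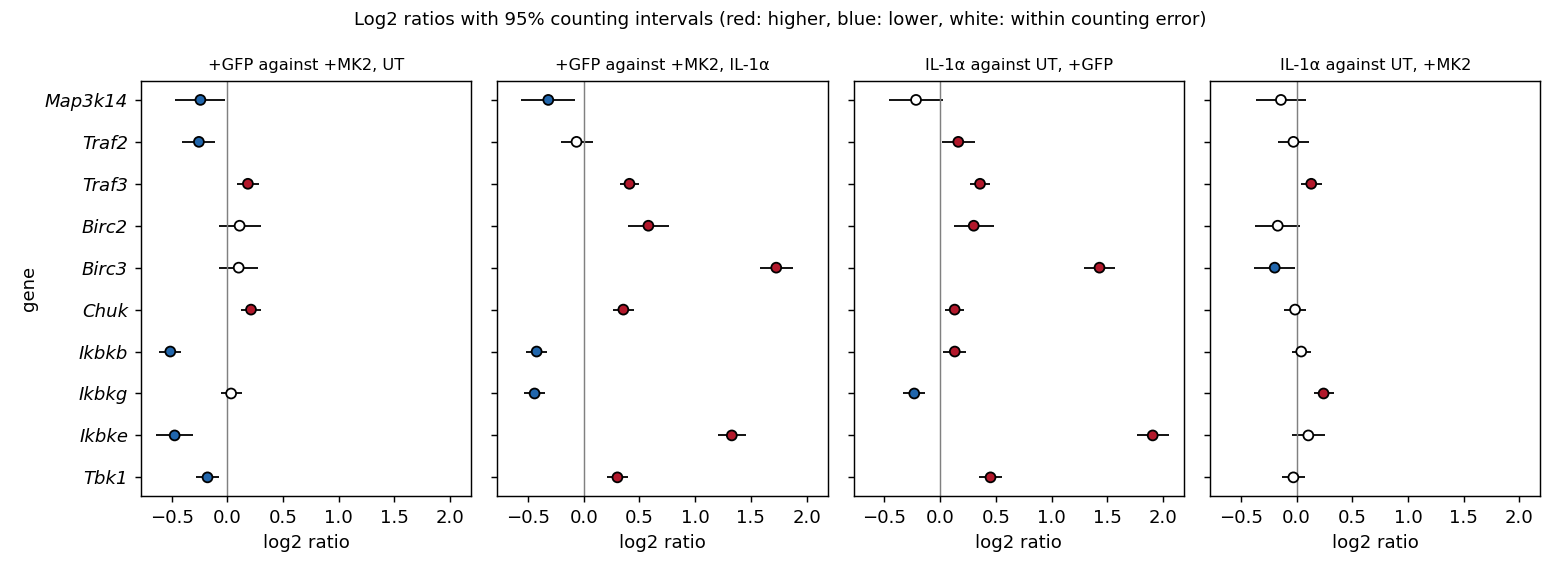
Log2 ratios (x axis) of the 10 genes in 4 comparisons, with points for the ratio and lines for its 95% counting interval. In the response of i*MK2*-KO +*GFP*, 8 points lie above 0 and 1 below it beyond counting error, whereas in i*MK2*-KO +*MK2* 7 of 10 intervals include 0.

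*Map3k14* encodes NIK, the kinase at the head of the non-canonical pathway. The gene had normalized counts of 300 (UT) and 258 (IL-1α) in i*MK2*-KO +*GFP* and 355 and 322 in i*MK2*-KO +*MK2*. Both i*MK2*-KO +*GFP* libraries were thus below both i*MK2*-KO +*MK2* libraries, which differ in treatment and are not replicates. By qPCR of untreated cells the study reported the other direction, more *Map3k14* mRNA in i*MK2*-KO +*GFP*. The log2 ratio between the lines was -0.24 (95% interval -0.47 to -0.02) in untreated and -0.32 (-0.56 to -0.08) in IL-1α-treated cells. The untreated difference is the less certain, since it fell within counting error if a deposited value stands for 0.75 reads. Neither response to IL-1α was beyond counting error, at -0.22 (-0.46 to 0.03) and -0.14 (-0.36 to 0.08). Given per kilobase of merged exons, the mean level of *Map3k14* was 72.7, the lowest of the 10 genes.

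*Traf2* encodes the adaptor that docks the cIAPs onto TRAF3 and NIK. Its normalized counts were 695 and 778 in i*MK2*-KO +*GFP* and 830 and 814 in i*MK2*-KO +*MK2*, so the lowest library was untreated i*MK2*-KO +*GFP*. The log2 ratio between the lines was -0.26 (-0.40 to -0.11) in untreated cells and -0.07 (-0.21 to 0.08) after IL-1α. The i*MK2*-KO +*GFP* response was 0.16 (0.01 to 0.31), a rise that was lost with library total or *Gapdh* scaling and at 0.75 reads per value. In i*MK2*-KO +*MK2* it was -0.03 (-0.17 to 0.11).

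*Traf3* encodes the adaptor that binds NIK directly. *Traf3* had normalized counts of 1910 and 2448 in i*MK2*-KO +*GFP* and 1681 and 1842 in i*MK2*-KO +*MK2*. It was higher in i*MK2*-KO +*GFP* in both states, by 0.18 (0.09 to 0.28) untreated and 0.41 (0.32 to 0.50) after IL-1α on the log2 scale. It rose with IL-1α in both lines, by 0.36 (0.27 to 0.45) and 0.13 (0.04 to 0.23), and the responses differed by 0.23 (0.10 to 0.35). In untreated cells *Traf2* and *Traf3* stood on opposite sides of 0, but relative to the median of the genes within 1000 kb of each they were both above it, at 0.17 (0.02 to 0.31) and 0.10 (0.01 to 0.20). For *Traf2* this depends on the window, as given below. *Traf3* was 2.75 times *Traf2* in untreated i*MK2*-KO +*GFP* (interval 2.52 to 3.00) and 2.03 times in untreated i*MK2*-KO +*MK2* (1.86 to 2.20). After IL-1α the same ratio was 3.15 and 2.26. These ratios are on counts not corrected for gene length. Per kilobase of merged exons, *Traf3* and *Traf2* were at 267 and 227 in untreated i*MK2*-KO +*GFP*. In untreated i*MK2*-KO +*MK2* they were at 235 and 271, so *Traf3* was below *Traf2* there. *Traf3* relative to *Map3k14*, the kinase it binds, was 6.37 and 9.49 in i*MK2*-KO +*GFP* and 4.74 and 5.72 in i*MK2*-KO +*MK2*, on counts that are not corrected for gene length.

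*Birc2* encodes cIAP1, a ubiquitin ligase of the complex. Its normalized counts were 477 and 588 in i*MK2*-KO +*GFP* and 442 and 393 in i*MK2*-KO +*MK2*. The untreated lines did not differ beyond counting error (0.11, -0.08 to 0.30). After IL-1α it was 0.58 (0.39 to 0.77) higher in i*MK2*-KO +*GFP*, where it had risen by 0.30 (0.13 to 0.48), while the i*MK2*-KO +*MK2* response was -0.17 (-0.37 to 0.03).

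*Birc3* encodes cIAP2, the closely related ligase whose gene lies 11635 bases from *Birc2* on chromosome 9. The libraries held normalized counts of 573 and 1546 in i*MK2*-KO +*GFP* and 534 and 466 in i*MK2*-KO +*MK2*. A single library, IL-1α-treated i*MK2*-KO +*GFP*, stood above the other three, which lay between 466 and 573. The response was 1.43 (1.29 to 1.57) in i*MK2*-KO +*GFP* and -0.20 (-0.38 to -0.01) in i*MK2*-KO +*MK2*, a difference of 1.63 (1.40 to 1.85), and the fall in i*MK2*-KO +*MK2* was within counting error at 0.75 reads per value. After IL-1α the lines differed by 1.73 (1.58 to 1.88), or 3.31-fold, after 0.10 (-0.07 to 0.27) in untreated cells. Reads of these paralogs can be divided between them by the quantification, so their sum was also taken. It was 1050 and 2134 in i*MK2*-KO +*GFP* and 976 and 859 in i*MK2*-KO +*MK2*, with responses of 1.02 (0.92 to 1.13) and -0.18 (-0.32 to -0.05). On counts not corrected for gene length, *Birc3* was 1.20, 1.21 and 1.19 times *Birc2* in untreated i*MK2*-KO +*GFP*, untreated i*MK2*-KO +*MK2* and treated i*MK2*-KO +*MK2*. In treated i*MK2*-KO +*GFP* it was 2.63 times (2.39 to 2.90). The excess of *Birc3* depends on the length used. In untreated i*MK2*-KO +*GFP*, *Birc3* and *Birc2* were at 135 and 131 per kilobase of merged exons. Per kilobase of the longest coding transcript they were at 197 and 143. The next tested gene beside them, *Tmem123*, had a response of 0.05 in i*MK2*-KO +*GFP*.

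**Figure D3:**
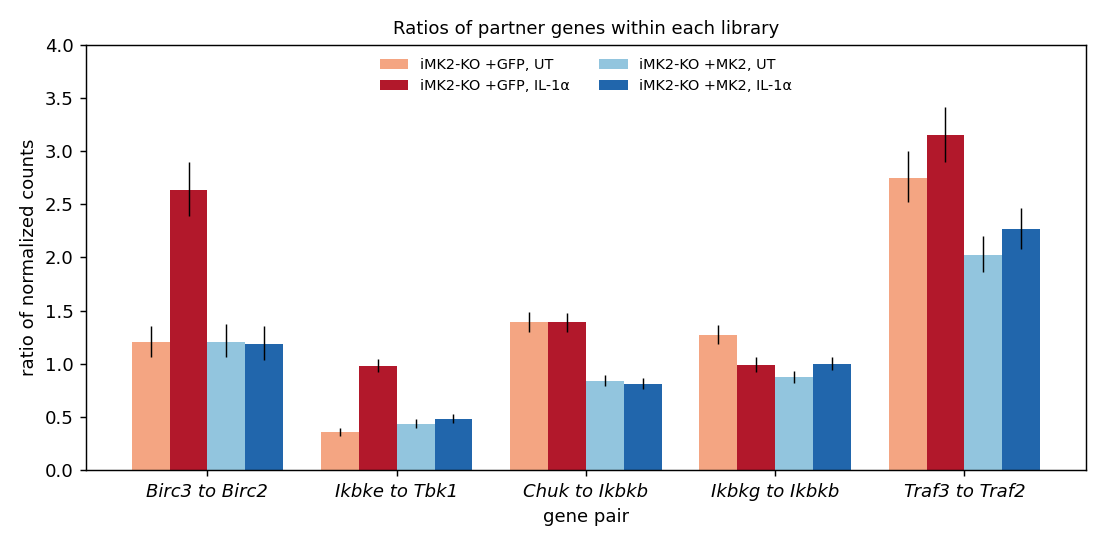
Ratios of normalized counts (y axis, linear from 0) of partner genes within each library, with lines for the exact 95% interval from counting error. Counts are not corrected for gene length. *Birc3* to *Birc2* and *Ikbke* to *Tbk1* are set apart in treated i*MK2*-KO +*GFP* (2.63 and 0.98), while *Chuk* to *Ikbkb* separates the lines in either state.

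*Chuk* encodes IKKα, the kinase shared by both pathways and the target of NIK. *Chuk* was at normalized counts of 2042 and 2235 in i*MK2*-KO +*GFP* and 1763 and 1747 in i*MK2*-KO +*MK2*, both libraries of the former being above both of the latter. The difference was 0.21 (0.12 to 0.30) untreated and 0.36 (0.26 to 0.45) after IL-1α. The response of 0.13 (0.04 to 0.22) in i*MK2*-KO +*GFP* was lost with library total or *Gapdh* scaling, and in i*MK2*-KO +*MK2* it was -0.01 (-0.11 to 0.08).

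*Ikbkb* encodes IKKβ, the main IκB kinase of the canonical pathway. Its normalized counts were 1469 and 1609 in i*MK2*-KO +*GFP* and 2096 and 2158 in i*MK2*-KO +*MK2*. The untreated lines differed by -0.51 (-0.61 to -0.42) and the treated ones by -0.42 (-0.52 to -0.33). Relative to the median of the genes within 1000 kb, the direction turned, to 0.15 (0.05 to 0.25) and 0.23 (0.14 to 0.33). On counts not corrected for gene length, *Chuk* was 1.39 times *Ikbkb* in both i*MK2*-KO +*GFP* libraries, and 0.841 and 0.81 times in i*MK2*-KO +*MK2*. Which gene is higher in i*MK2*-KO +*MK2* depends on the length used. Per kilobase of merged exons *Chuk* was above *Ikbkb* there (503 and 462 UT, 499 and 476 IL-1α). Per kilobase of the longest coding transcript it was below (503 and 527, 499 and 543). The response of *Ikbkb* was 0.13 (0.03 to 0.23) in i*MK2*-KO +*GFP*, lost with library total or *Gapdh* scaling, and 0.04 (-0.05 to 0.13) in i*MK2*-KO +*MK2*.

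*Ikbkg* encodes NEMO, the regulatory scaffold that joins IKKα and IKKβ and binds ubiquitin chains. *Ikbkg* had normalized counts of 1872 and 1593 in i*MK2*-KO +*GFP* and 1829 and 2164 in i*MK2*-KO +*MK2*. The untreated libraries differed by 0.03 (-0.06 to 0.13), or by -0.13 (-0.23 to -0.04) relative to the median of the genes within 1000 kb, and the treated ones lay on either side of them. The response was -0.23 (-0.33 to -0.14) in i*MK2*-KO +*GFP* and 0.24 (0.15 to 0.33) in i*MK2*-KO +*MK2*, and the treated lines differed by -0.44 (-0.54 to -0.35). The gene overlaps *G6pdx* on the X chromosome, whose normalized counts were 7468, 7518, 6901 and 6861 in the same order.

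*Ikbke* encodes IKKε, an inducible kinase in immune cells. Its normalized counts were 501 and 1883 in i*MK2*-KO +*GFP* and 696 and 749 in i*MK2*-KO +*MK2*. Untreated i*MK2*-KO +*GFP* was the lowest and treated i*MK2*-KO +*GFP* the highest library. The untreated difference was -0.47 (-0.64 to -0.31), and after IL-1α it was 1.33 (1.21 to 1.45), or 2.51-fold, in the other direction. Relative to the median of the genes within 1000 kb, the untreated difference was within counting error, at -0.10 (-0.27 to 0.07). This depends on the window, as given below. The response was 1.91 (1.77 to 2.06) in i*MK2*-KO +*GFP* and 0.11 (-0.04 to 0.26) in i*MK2*-KO +*MK2*, and these differed by 1.80 (1.60 to 2.01). The 3 tested genes within 100 kb, *Rassf5*, *Eif2d* and *Srgap2*, had i*MK2*-KO +*GFP* responses of 0.05, 0.12 and 0.17. *Mapkapk2*, the gene deleted in both lines, lies 156517 bases from *Ikbke* on chromosome 1.

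*Tbk1* encodes the partner kinase of IKKε, present in most cell types. *Tbk1* stood at normalized counts of 1404 and 1921 in i*MK2*-KO +*GFP* and 1589 and 1558 in i*MK2*-KO +*MK2*. Its difference between the lines changed sides with IL-1α, from -0.18 (interval -0.28 to -0.07) to 0.30 (0.21 to 0.40). The response was 0.45 (0.35 to 0.55) in i*MK2*-KO +*GFP* and -0.03 (-0.13 to 0.07) in i*MK2*-KO +*MK2*. On counts not corrected for gene length, *Ikbke* was 0.357 times *Tbk1* in untreated i*MK2*-KO +*GFP* and 0.438 and 0.481 times in i*MK2*-KO +*MK2*. In treated i*MK2*-KO +*GFP* it was 0.98 times (0.919 to 1.05).

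**Figure D4:**
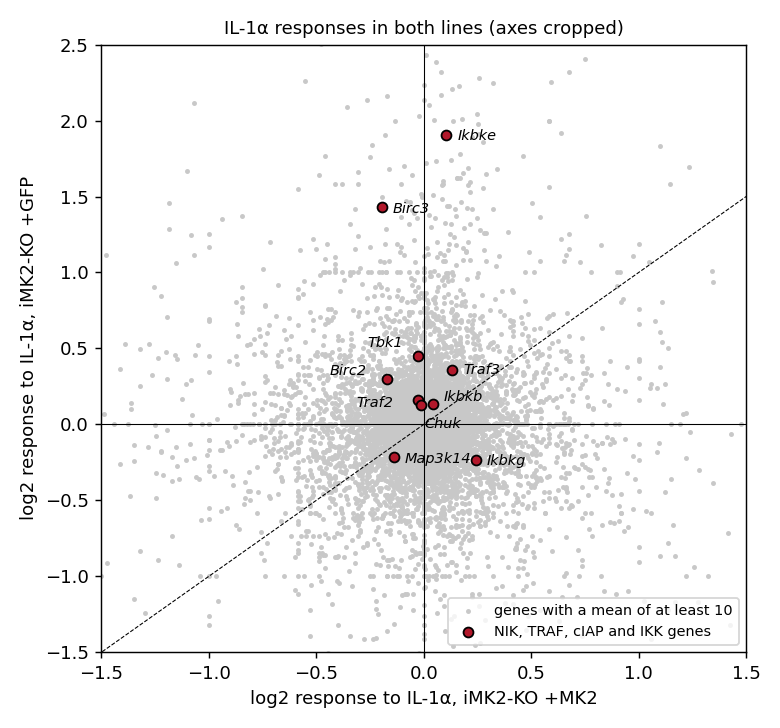
Log2 response to IL-1α in i*MK2*-KO +*MK2* (x axis) against that in i*MK2*-KO +*GFP* (y axis), grey for the tested genes and red for the 10 genes; the dashed line marks equal responses and 192 genes lie outside the axes. *Ikbke* (0.11 and 1.91) and *Birc3* (-0.20 and 1.43) lie far above the line, and *Ikbkg* (0.24 and -0.23) lies below it.

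To compare levels between genes, counts were divided by exon length in the GENCODE M21 annotation. Per kilobase of merged exons, the mean over the libraries was highest for *Chuk* (556), *Tbk1* (535) and *Ikbkb* (404). *Ikbke* (289), *Traf3* (275), *Ikbkg* (254), *Traf2* (254), *Birc3* (184) and *Birc2* (130) followed, before *Map3k14*. In untreated i*MK2*-KO +*MK2* cells, *Tbk1*, *Chuk* and *Ikbkb* took the first 3 places with either merged exons or the longest coding transcript, but in another order among themselves. In that library the order of the other 7, which was not the order of the means, was the same with both lengths. The order of the means did depend on the length. By the longest coding transcript, *Birc3* (268) was above *Ikbkg* (267) and *Traf2* (256). The mean of *Ikbke* rests on treated i*MK2*-KO +*GFP*, at 569 per kilobase of merged exons, against 151, 210 and 226 elsewhere.

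The genes nearest in pattern were found by Euclidean distance between the centred log2 values of the 4 libraries, leaving out genes whose mean was under 50. With 4 points a small distance is a description only. The nearest to *Ikbke* was *Ccl3*, a macrophage chemokine (distance 0.0216), with normalized counts of 1872, 6994, 2558 and 2748 in the order i*MK2*-KO +*GFP* UT and IL-1α, then i*MK2*-KO +*MK2* UT and IL-1α. It was followed by *Csf1*, a macrophage growth factor (1153, 4332, 1526 and 1823), and *Dusp2*, a MAP kinase phosphatase (177, 715, 282 and 319). For *Birc3* they were *Gm6377*, the adenosine receptor gene *Adora2b* and *Cdc42ep4*, at distances of 0.184 to 0.205. *Birc3* was also the member nearest to *Ikbke*, at 0.63. For *Tbk1* they were *B3gnt2*, the repressor gene *Bcl6* and *Gm28043*, for *Traf3* *Kif15*, *Znrf1* and *Ranbp10*, and for *Ikbkg* *Ccdc77*, *Kif1b* and *Alkbh2*. *Map3k14* was nearest to *Abhd8*, *St8sia4* and *Ccdc85b*, *Traf2* to *Cyp20a1*, *Tle6* and *Kif23*, *Birc2* to *Mid1ip1*, *Ikzf5* and *Nck1*, *Chuk* to *Rap2c*, *Morf4l2* and *Nrbp1*, and *Ikbkb* to *Nedd4l*, *Arl8a* and *Ptges2*.

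The members that were lower in untreated i*MK2*-KO +*GFP* were set beside the genes around them, using positions as deposited, for a build that the file leaves unnamed. *Ikbkb* lies at chr8:23149228-23196605. Of the 17 other tested genes within 1000 kb of it, all 17 had a log2 ratio between the untreated lines below 0, with 14 lower beyond counting error, none higher and a median of -0.66. After IL-1α, 16 of the 17 were below 0, 15 of them lower beyond counting error, and the median was again -0.66. The remaining 660 tested genes of the chromosome had medians of 0.01 and 0.03, with 29.4% lower beyond counting error in untreated cells. *Ikbkb*, at -0.51 and -0.42, was therefore lower by less than the median of the 17 genes. Lower genes were not confined to 1000 kb. In untreated cells *Adam9* and *Plekha2*, 2.30 and 2.39 Mb away, were at -0.66 and -1.16, whereas *Gm21092* was at 0.50, within counting error. The nearest 4 tested genes, *Polb*, *Vdac3*, *Ap3m2* and *Slc20a2*, were lower in both comparisons.

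**Figure D5:**
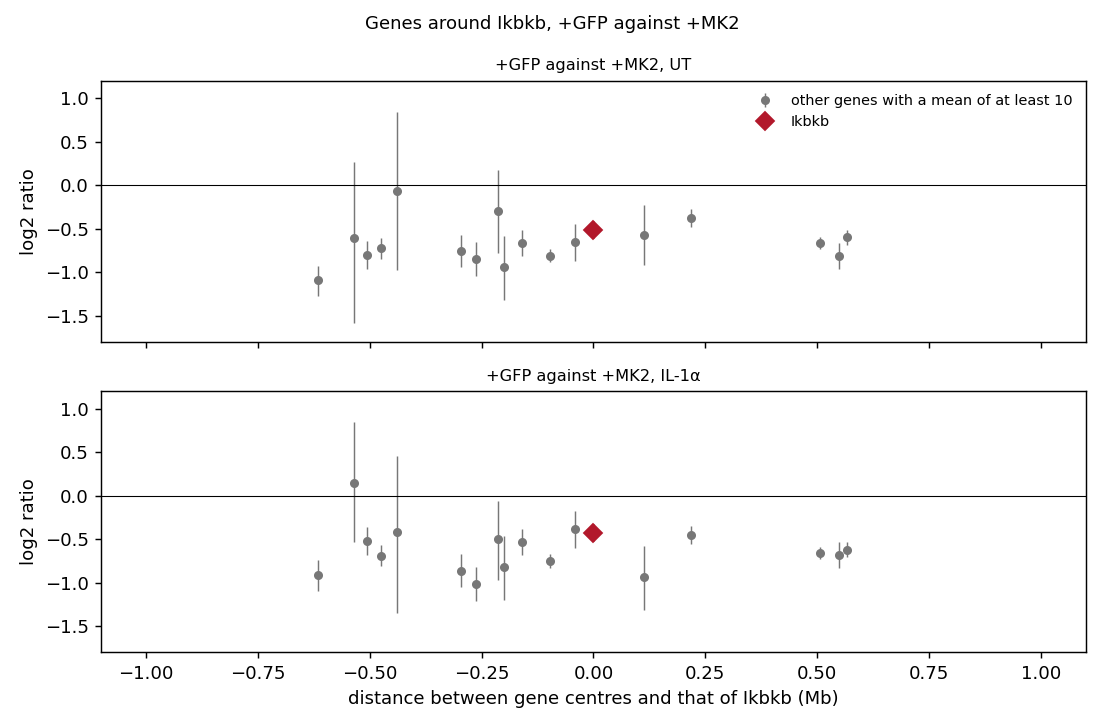
Log2 ratio of i*MK2*-KO +*GFP* to i*MK2*-KO +*MK2* (y axis) for *Ikbkb* (red) and the 17 other tested genes within 1000 kb, by distance between gene centres (x axis, Mb), with 95% counting intervals. All 17 lie below 0 in untreated cells and 16 after IL-1α.

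*Traf2* lies at chr2:25407994-25436952, where the 52 other tested genes within 1000 kb had medians of -0.42 (UT) and -0.40 (IL-1α), and the remaining 959 of the chromosome -0.23 and -0.24. Relative to the median of those 52 genes, the ratio of *Traf2* turned to a positive value in untreated cells and was 0.34 (0.19 to 0.48), higher beyond counting error, in treated cells. The 12 tested genes within 100 kb had medians of -0.25 (UT) and -0.17 (IL-1α). The untreated median was close to the ratio of *Traf2* itself (-0.26), so the turn in untreated cells depends on the window. *Ikbke* lies at chr1:131182080-131207344, where the 17 genes within 1000 kb, without *Mapkapk2*, had medians of -0.37 and -0.32, and the remaining 727 of the chromosome -0.25 and -0.24. Relative to the 17, the treated ratio of *Ikbke* was 1.64 (1.52 to 1.77), larger than without them. The 3 tested genes within 100 kb of *Ikbke* had medians of -0.10 and -0.01, so its untreated call relative to surroundings also depends on the window. Chromosomes 1 and 2 had the lowest medians in untreated cells, at -0.26 and -0.25, and those of the others with at least 100 tested genes lay between -0.12 and 0.12. The part of these surroundings in the line differences of *Ikbkb*, *Traf2* and *Ikbke* was not tested.

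Around the remaining members the medians lay near or above 0. *Map3k14* (chr11:103110588-103158298) was lower while the 25 tested genes within 1000 kb had medians of 0.14 and 0.10, and *Tbk1* (chr10:121382360-121422692) had 8 such genes with medians of 0.04 and -0.04. Closer to *Map3k14*, the 5 tested genes within 100 kb had medians of 0.99 and 0.81. Relative to the genes within 1000 kb, the untreated ratios were -0.38 (-0.61 to -0.16) for *Map3k14* and -0.22 (-0.33 to -0.12) for *Tbk1*. The untreated ratio of *Tbk1* itself (-0.18) lay within the quartiles of its 8 genes, -0.36 to 0.15. That of *Map3k14* (-0.24) lay below the quartiles of its 25 genes, 0.05 to 0.22. The medians around *Traf3* (chr12:111132804-111233587), *Chuk* (chr19:44061774-44095919), *Birc2* (chr9:7818228-7837065) and *Birc3* (chr9:7848700-7873187) were between 0.04 and 0.12. Around *Ikbkg* (chrX:73436896-73497460) they were 0.17 and 0.25, and relative to them its treated ratio was -0.69 (-0.78 to -0.59). The untreated ratio of *Ikbkg* itself (0.03) lay within the quartiles of its 39 surrounding genes, -0.0001 to 0.28. The treated one (-0.44) lay below theirs, 0.15 to 0.38. The responses to IL-1α compare libraries of the same line.

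Around the 10 genes in the pathway, 67 further genes were listed, of which 57 were tested. In untreated cells 25 of the 57 were higher and 10 lower in i*MK2*-KO +*GFP*, against 30.8% and 26.9% of all genes tested. After IL-1α the counts were 32 and 10, against 33.7% and 26.3%. With IL-1α, 23 rose and 6 fell in i*MK2*-KO +*GFP*, against 20% and 12.3% of all genes, and 12 rose and 2 fell in i*MK2*-KO +*MK2*, against 11.4% and 8.23%. A 2-fold change with IL-1α was passed by 8 upwards and 1 downwards in i*MK2*-KO +*GFP*, against 1.79% and 1.11% of all genes, and by none in i*MK2*-KO +*MK2*, against 1.35%. The shares over all genes apply to each of the lists that follow, whose few genes are given as counts only, and nothing is called particular to a list.

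Among the IκB and NF-κB proteins on which the IKKs act, 8 of 8 rose with IL-1α in i*MK2*-KO +*GFP*, 5 of them past 2-fold, and 6 rose in i*MK2*-KO +*MK2*, none past 2-fold. *Nfkbia*, the gene of the canonical inhibitor IκBα, was at 587 and 7794 in i*MK2*-KO +*GFP* and at 480 and 815 in i*MK2*-KO +*MK2*. *Nfkbie*, encoding IκBε, was at 44 and 821 against 36 and 68, and *Relb*, the non-canonical partner of NF-κB2, at 99 and 706 against 86 and 131. These log2 responses in i*MK2*-KO +*GFP* were 3.73, 4.19 and 2.82, all larger than that of any of the 10 genes. In this list 4 of 8 genes were higher in untreated i*MK2*-KO +*GFP* and 8 of 8 after IL-1α.

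Of the 5 other TRAF family members, i*MK2*-KO +*GFP* had higher values for 3 in either state and for 2 a rise with IL-1α. *Traf1*, whose product pairs with TRAF2, was at 15 and 341 in i*MK2*-KO +*GFP* and at 4 and 10 in i*MK2*-KO +*MK2*, a response of 4.42 in the former. Of the 6 other IAP genes, 3 were higher in either state, against 30.8% (UT) and 33.7% (IL-1α) of all genes. With IL-1α none of them rose and 1 fell in i*MK2*-KO +*GFP*, against 20% and 12.3% of all genes. Of 9 receptors that recruit TRAF2 and TRAF3, 6 were tested, of which with IL-1α 1 rose and 2 fell in i*MK2*-KO +*GFP*. *Tnfrsf1b* (TNF receptor 2) rose from 2690 to 5861, with 1816 and 1841 in i*MK2*-KO +*MK2*. *Tnfrsf1a* (TNF receptor 1), named after its values were seen, fell from 2503 to 2095, with 2054 and 2057 in i*MK2*-KO +*MK2*. *Tnfrsf11a*, the gene of RANK, was at 415 and 362 against 763 and 728, and *Tnfrsf4*, the other receptor that fell, was at 19 and 6 against 6 and 11, few counts in every library. Of 8 ligands 2 were tested, and *Tnf* was at 332 and 10784 in i*MK2*-KO +*GFP* and at 315 and 608 in i*MK2*-KO +*MK2*, with *Cd40lg* and *Tnfsf11* at 0 in all libraries.

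The last 4 lists cover proteins that act directly on or with the members. Of 8 tested regulators of NIK, TRAF3 and cIAP turnover, 1 was higher and 3 lower in untreated i*MK2*-KO +*GFP*, and with IL-1α 2 rose there and 2 fell in i*MK2*-KO +*MK2*. Of 10 genes of the TAK1, LUBAC and RIPK1 module upstream of the IKK complex, 2 rose with IL-1α in i*MK2*-KO +*GFP*, and in the rescued line 3 rose. Of 4 chaperones and partners of the IKKs, 3 rose in i*MK2*-KO +*GFP*, and in the rescued line 1 rose. Of 8 adaptors and substrates of TBK1 and IKKε, 4 rose and 3 fell in i*MK2*-KO +*GFP* and none was called in i*MK2*-KO +*MK2*. *Tank*, the adaptor that links TRAFs to TBK1 and IKKε, was chosen after its values were seen, with 1255 and 2290 in i*MK2*-KO +*GFP* and 1530 and 1539 in i*MK2*-KO +*MK2*. None of the genes in these 4 lists differed by 2-fold in any of the 4 comparisons.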

How the data were processed

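RNA sequencing of 4 libraries, 1 per condition, was deposited as 1 table of 55356 genes. The authors normalized the gene counts with DESeq2 and rounded them, so each deposited value is a score per gene and library and no longer a raw count. Column names point to salmon. The submitters' processing notes name GRCm38 with no version of any tool, but only 2.87% of the 52080 gene identifiers shared with the GRCm38 GENCODE M21 annotation had the same start and end, so positions are given as in the table. The sources differ on whether the RNA was poly(A)-selected or ribosome-depleted.

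Groups came from the sample labels. The members and lists were chosen with earlier results of these data known. Python 3.11.15 with numpy 2.4.6, scipy 1.17.1 and pandas 2.3.3 was used. Ratios were taken on the log2(value + 1) scale, with exact Clopper-Pearson 95% intervals for 2 libraries and a normal approximation for differences of responses. Genes with a mean of at least 10 formed the background. The interval code was checked on simulated data. Genes of other lists were named where past 2-fold, at most 3 per list and comparison, and for each member the 3 genes nearest in pattern. Spacing of low values gave an estimate of 1.19 to 1.32 reads per value, with correlations of 0.64 to 0.81 between observed and modelled spacing. Whether intervals based on 1 read per value are too wide was therefore not established. Alternatives were other scalings, pseudocounts, minimum values, reads per value and a 1.5-fold limit. The spacing estimate and the ratios relative to surrounding genes were added after seeing the data.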

Additional observations from a re-analysis of the deposited data

Results flagged for a closer look

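For *Birc3* and *Ikbkg*, the responses to IL-1α went in opposite directions in the lines, each beyond counting error. *Birc3* was at 1.43 on the log2 scale in i*MK2*-KO +*GFP* and at -0.20 in i*MK2*-KO +*MK2*. Its fall in i*MK2*-KO +*MK2* was within counting error (-0.41 to 0.01) at 0.75 reads per value. *Ikbkg* was at -0.23 in i*MK2*-KO +*GFP* and at 0.24 in i*MK2*-KO +*MK2*. With 1 library per condition, neither difference was tested against variation between cultures.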

How the results depend on the processing

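No paired analysis was possible because each condition has 1 library and no test was made, and for the same reason no library could be left out. With scaling to library totals or to *Gapdh*, members raised by IL-1α in i*MK2*-KO +*GFP* went from 8 to 5 and members lowered from 1 to 2. At 0.75 reads per value, members lowered in i*MK2*-KO +*MK2* went from 1 to 0. Relative to genes within 1000 kb, the line ratios of *Ikbkb* turned to 0.15 (UT) and 0.23 (IL-1α) and that of *Traf2* to 0.17 (UT). Under the same alternative *Traf2* became higher between treated lines (0.34), *Ikbkg* lower between untreated lines (-0.13), and *Ikbke* between untreated lines fell within counting error (-0.10). Calls relative to surrounding genes carry the counting error of the member only, not the spread of those genes, and depend on the window. With *Birc2* and *Birc3* summed, the response in i*MK2*-KO +*MK2*, within counting error for *Birc2* alone, was lower (-0.18). *Gapdh* scaling moved the median of all genes in the treated line comparison by -0.10. Under the scalings and reads per value, calls also changed for *Map3k14* (UT lines) and *Traf2* (i*MK2*-KO +*GFP* response), within counting error at 0.75 reads per value, *Traf2* between treated lines, lower with *Gapdh* scaling (-0.17), and the response differences of *Chuk* (within with library totals, *Gapdh* or 0.75 reads) and *Traf2* (larger with more reads per value or with the spacing estimate).

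Among the other pathway genes, those lowered by IL-1α in i*MK2*-KO +*GFP* went from 6 to 11 (library totals, *Gapdh*) and 10 (median of ratios), and past 2-fold from 1 to 0 with a mean of at least 50. Those lowered in i*MK2*-KO +*MK2* went from 2 to 4 (library totals, trimmed mean of M values, more reads per value, spacing estimate), and those raised past the limit from 0 to 4 at 1.5-fold. Smaller responses in i*MK2*-KO +*GFP* went from 6 to 11 (*Gapdh*), and past 2-fold from 1 to 0 (pseudocount 5, mean of at least 50). Between treated lines, higher genes went from 32 to 21 (*Gapdh*), those past the limit from 8 to 13 at 1.5-fold, and lower ones past it from 1 to 0 (pseudocount 5) or 2 (any value above 0). Between untreated lines, higher genes past the limit went from 2 to 1 (0.75 reads, mean of at least 50) or 4 (1.5-fold), and lower ones from 0 to 1 (1.5-fold). Other causes of these changes than the setting itself were not tested. Of the other alternative counts, 515 stayed within 1.5 times the main count.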
